A study of Arabidopsis thaliana with 39 samples.

Results

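The comparison described here set Arabidopsis thaliana seedlings given salicylic acid (SA) for 12 h against seedlings given urea for 12 h. Its members were chosen by sample title, 3 SA libraries and 3 urea libraries, 6 of the 39 RNA sequencing libraries of the series. Both groups were wild-type Col-0, 14 days old, grown as whole seedlings in liquid medium with sucrose under continuous light. They differed in the compound added, 1 mM SA or 20 mM urea, so the doses also differed. The series gave the same treatments for 6, 24 and 48 h, gave 20 mM L-glutamate (L-Glu) at all 4 times, and kept a water-treated group at 0 h (mock), with 3 libraries in each of 13 groups. No water group at 12 h was analysed here, so a difference from mock cannot be told apart from time in culture. Nothing in the labels tells whether the 3 libraries of a group came from separate cultures, and p-values therefore measure only the spread between these libraries, which may be technical.

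SA is a plant hormone made mainly from chorismate in plastids, and it accumulates in tissue attacked by biotrophic pathogens. It is perceived by the NPR proteins, which have no DNA-binding domain of their own and act through TGA transcription factors on genes such as PR1. SA also turns on enzymes that hydroxylate it or attach sugar to it, and it is known to oppose jasmonate responses and growth. Urea is a nitrogen source that roots take up, and here it was the reference treatment.

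Values are the authors' normalized values per gene, which are not read counts, and the depth behind them is unknown. Per library they summed to between 2745180 and 3006980 in the 6 libraries compared. Differences are SA minus urea on the scale of log2(value + 1), given with the standard error (SE) of a limma fit over all 39 libraries. A gene was called when its adjusted p was under 0.05 over 20001 genes. The addition of 1 understates the change of a gene with low values, and a gene listed at 0 was not taken as absent. SA replicate 1 and urea replicate 2 at 12 h listed no gene at 0. The other SA libraries listed 363 and 374 genes at 0, and the other urea libraries 232 and 204. Values near 0 therefore cannot be compared closely between replicates.

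SA and urea libraries differed widely at 12 h. Of 20001 genes, 6360 were called (31.8%), 3244 higher in SA (16.2%) and 3116 lower (15.6%). The median over all genes was -0.02. At least 2-fold changes were called in 3413 genes (17.1%), of which 1527 were higher and 1886 lower. Changes of at least 16-fold were seen in 92 higher and 47 lower genes. The 3 SA values lay wholly above or below the 3 urea values in 9460 genes (47.3%). On the first principal component of the 6 libraries, with 69.7% of the variance, the SA libraries lay between 67.3 and 78.0 and the urea libraries between -75.2 and -66.5.

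**Figure D1:**
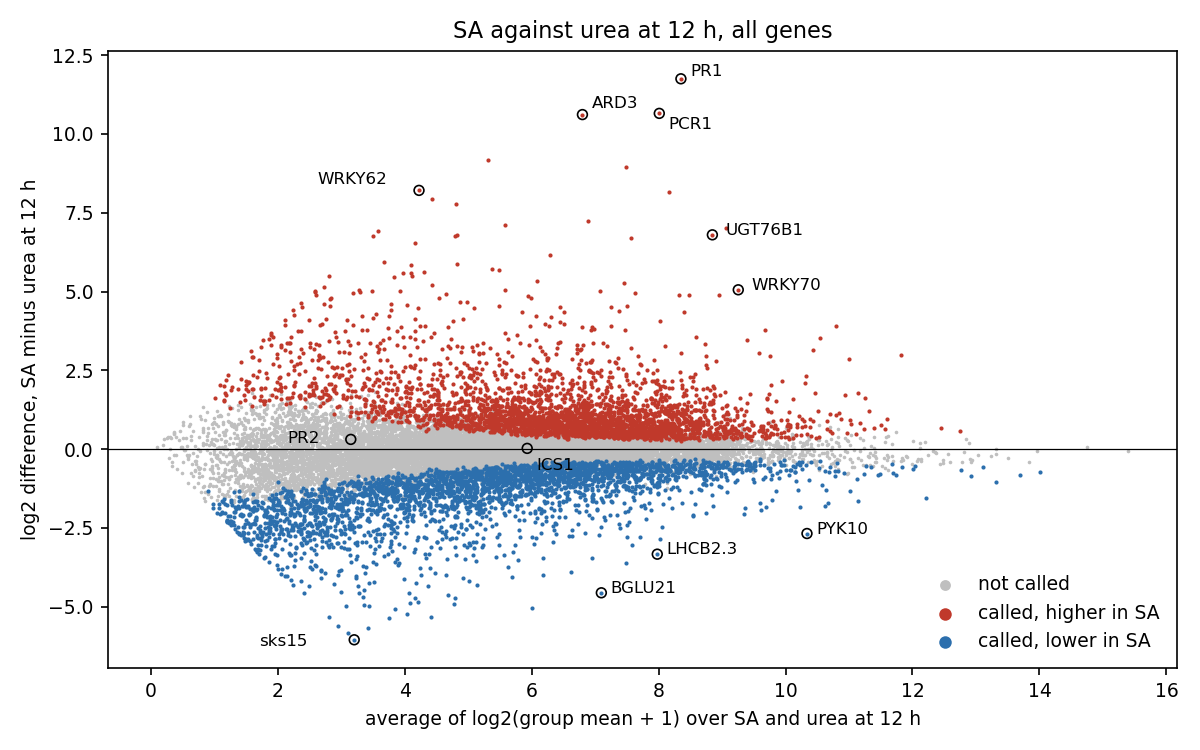
Each point is 1 of 20001 genes, with the average of log2(group mean + 1) over SA and urea at 12 h on the horizontal axis and the log2 difference SA minus urea on the vertical axis; red and blue points were called higher or lower in SA, grey points were not called, and 12 genes are ringed and named. PR1 stands highest at 11.75, while ICS1 and PR2 lie near 0 among the genes not called.

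Most of the genes with the highest differences had low values in urea, though UGT76B1, described with the enzymes that modify SA, did not. PR1 (AT2G14610), the pathogenesis-related protein used as the standard marker of SA responses, had values of 13523, 12947 and 13360.3 in the SA libraries and 1.82, 19.3 and 0 in the urea libraries. Its difference was 11.75 ± 0.86 (SE, adjusted p = 1.43e-12, limma), and the groups were far apart. PCR1 (AT1G14880), a small plasma membrane protein named for cadmium resistance, reached 5443, 6891 and 8027 in SA against 1.82, 24.6 and 0 in urea. ARD3 (AT2G26400), an acireductone dioxygenase of the methionine salvage cycle, reached 4215, 4460.1 and 3974 against 3.76, 1.34 and 0.741. Their differences were 10.65 ± 0.86 and 10.62 ± 0.59.

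PCC1 (AT3G22231), a small protein under pathogen and circadian control, stood at 719, 835 and 1055 in SA and 0, 2.39 and 0 in urea. Its neighbour AT3G22235, a cysteine-rich stress protein of the same family, stood at 216, 244 and 306 and 0.862, 5.54 and 0. Both differences were large, at 9.16 ± 0.69 and 6.78 ± 0.59, although reads of such related neighbours may have been split between them. The legume lectin gene AT5G03350 had 4562, 5178 and 4740.3 in SA and 18.4, 17.2 and 12.18 in urea, a difference of 8.17 ± 0.49. The AAA-type ATPase gene AT3G28510 differed by 8.95 ± 0.67, and LURP1 (AT2G14560), named for its late rise in infection by an oomycete, by 7.02 ± 0.82. LHT7, an amino acid transporter of the lysine and histidine family, differed by 7.24 ± 0.71, and the WD40 repeat gene AT1G18830 by 7.79 ± 0.58. ABR1 (AT5G64750), an AP2-type repressor of abscisic acid responses, had 158, 79.5 and 162 in SA and 0, 0.178 and 0 in urea. These genes were chosen for groups that did not overlap.

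Promoters of 6 of the 15 genes with the highest differences, chosen after their matches were known, are shown because TGA factors bind the letters TGACG and WRKY factors bind TTGAC, the factor families that SA signalling is best known for. Each is the 250 bases before the annotated transcript start, 5′ to 3′ on the gene's own strand, from RefSeq assembly TAIR10.1. Capitals mark TGACG or TTGAC on either strand (CGTCA and GTCAA are their reverse complements, and TTGACG would hold both). ARD3 lies at chr2:11233389-11233638, PCC1 at chr3:7846834-7847083 and LHT7 at chr4:16740602-16740851. AT5G03350 lies at chr5:816671-816920, WRKY62 at chr5:352096-352345 and NIMIN1 at chr1:498540-498789. All 6 are on the minus strand.
ARD3: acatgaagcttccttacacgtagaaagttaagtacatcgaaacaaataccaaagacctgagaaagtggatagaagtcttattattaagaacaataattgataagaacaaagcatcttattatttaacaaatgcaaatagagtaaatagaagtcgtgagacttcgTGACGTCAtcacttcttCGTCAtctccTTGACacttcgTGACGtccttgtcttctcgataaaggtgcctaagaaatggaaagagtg
PCC1: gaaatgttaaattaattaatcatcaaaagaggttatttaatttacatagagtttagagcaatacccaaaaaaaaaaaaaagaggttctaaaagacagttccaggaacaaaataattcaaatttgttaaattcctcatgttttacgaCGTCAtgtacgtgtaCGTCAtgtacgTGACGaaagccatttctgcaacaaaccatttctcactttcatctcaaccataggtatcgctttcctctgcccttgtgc
AT5G03350: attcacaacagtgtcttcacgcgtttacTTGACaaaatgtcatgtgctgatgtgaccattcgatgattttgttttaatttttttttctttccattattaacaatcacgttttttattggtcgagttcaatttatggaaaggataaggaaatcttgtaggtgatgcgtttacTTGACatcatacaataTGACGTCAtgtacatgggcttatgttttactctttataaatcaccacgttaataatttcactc
LHT7: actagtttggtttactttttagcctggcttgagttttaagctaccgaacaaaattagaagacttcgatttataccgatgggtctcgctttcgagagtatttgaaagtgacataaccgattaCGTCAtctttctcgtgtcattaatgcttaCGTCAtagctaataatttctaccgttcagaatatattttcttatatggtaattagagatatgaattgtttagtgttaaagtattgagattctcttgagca
WRKY62: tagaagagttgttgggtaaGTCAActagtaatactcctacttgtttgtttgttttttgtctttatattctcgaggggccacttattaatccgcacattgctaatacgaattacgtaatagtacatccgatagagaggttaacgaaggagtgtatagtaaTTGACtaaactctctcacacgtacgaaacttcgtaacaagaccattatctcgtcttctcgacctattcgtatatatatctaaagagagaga
NIMIN1: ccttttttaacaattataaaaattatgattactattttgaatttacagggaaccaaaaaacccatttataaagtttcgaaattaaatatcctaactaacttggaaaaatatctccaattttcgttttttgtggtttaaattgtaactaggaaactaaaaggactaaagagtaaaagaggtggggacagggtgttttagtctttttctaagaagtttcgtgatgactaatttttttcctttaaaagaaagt
ARD3 holds 4 TGACG matches and 1 TTGAC match in this window, and the palindrome TGACGTCA counts as 2 matches because both strands were searched. PCC1 holds 3 TGACG matches, AT5G03350 2 of each motif, LHT7 2 TGACG matches, WRKY62 2 TTGAC matches and NIMIN1 neither. PCR1, LURP1, ABR1 and UGT76B1, also among the 15 highest, hold neither motif. TGACG was present in 34.1% of the 91 promoters of genes called at least 16-fold higher, in 24.7% of the 1511 called at least 2-fold higher and in 19.4% of all 19658 promoters. At least 2 TGACG matches were present in 15.4%, 5.69% and 3.59% of them. TTGAC was present in 54.9%, 55.5% and 45.5%. Promoters of the 1862 genes called at least 2-fold lower held TGACG in 18.4%, at least 2 matches in 2.52%, and TTGAC in 44.1%. The 46 promoters of genes called at least 16-fold lower held them in 21.7%, 6.52% and 39.1%, where 6.52% is 3 promoters. GC content was 31.5% in the first set, 31.2% in the second and 31.4% over all promoters. A match describes these letters in this window only, and no binding was measured.

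The genes that make SA did not follow its targets. ICS1 (AT1G74710), the isochorismate synthase of pathogen-induced SA synthesis, had 57.9, 58.2 and 64.7 in SA and 59.2, 70.1 and 49.8 in urea. The groups overlapped, and the difference of 0.02 ± 0.33 did not pass the test (adjusted p = 0.963, limma). EDS5, the transporter that exports the precursor from plastids, had a difference of 0.52 ± 0.29, and PBS3, which conjugates the precursor to glutamate, one of 0.43 ± 0.47. Neither was called. ICS2, another isochorismate synthase, fell by 1.98 ± 0.47, with 6.17, 13.3 and 23.2 in SA, 60.6, 49.3 and 48.6 in urea and a mock mean of 11.8. The acyltransferase EPS1, which speeds release of SA from isochorismoyl-glutamate, was lower by a difference of -0.97 ± 0.34, a call lost without SA replicate 1, urea replicate 2 or urea replicate 3. None of the 5 synthesis genes was called higher and 2 were called lower, and their median was 0.02.

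Regulators upstream of SA synthesis moved the other way, with 9 of 12 called higher, none lower and a median of 1.05. SARD1, a transcription factor that switches on ICS1 in infected leaves, had 1054, 558 and 600.3 in SA and 33.9, 34.1 and 23.62 in urea, a difference of 4.51 ± 0.32. Its relative CBP60G had 165, 119.7 and 94.4 and 52.4, 70.05 and 55.6. That difference of 1.05 ± 0.36 was called, but not without SA replicate 1, urea replicate 1 or urea replicate 3. The lipase-like immune regulators PAD4 and EDS1 rose by 1.70 ± 0.24 and 1.07 ± 0.21, though EDS1 has a close copy beside it that can share its reads. NDR1, a membrane protein needed by coiled-coil immune receptors, rose by 2.39 ± 0.40, and ADR1-L1, a helper immune receptor, by 1.28 ± 0.16.

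Receptors of SA and their partners were higher in part, with 10 of 18 perception genes called higher, none lower and a median of 0.54. The number higher was 9 under quantile normalization, 8 with the groups compared alone and 7 under scaling to the same total. Over all genes 16.2% were higher. NPR1, the receptor and co-activator, had 438, 366 and 393 in SA and 154, 170.4 and 144 in urea, a difference of 1.35 ± 0.15. NPR3 and NPR4, receptors that repress defence genes when SA is low, rose by 3.26 ± 0.20 and 2.49 ± 0.19. TRX5, a thioredoxin that reduces NPR1, rose by 1.95 ± 0.27. The largest rises were in inhibitors of NPR1. NIMIN1 had 273, 313 and 389 in SA and 0, 1.31 and 0 in urea, and NIMIN2 (AT3G25882) 195, 183 and 264 and 1.83, 2.36 and 4.07. Their differences were 7.93 ± 0.51 and 5.87 ± 0.57.

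Of 11 genes of SA breakdown and conjugation, 5 were called higher, 1 lower and 5 were not called, with a median of 0.59. DMR6 (AT5G24530), an SA hydroxylase, had 1476, 2069 and 1731 in SA and 55.3, 52.1 and 65.4 in urea, a difference of 4.90 ± 0.33 (adjusted p = 2.27e-13, limma). DLO1 (AT4G10500), which hydroxylates SA at another ring position, rose by 4.85 ± 0.59. UGT76B1, a glucosyltransferase for SA, isoleucic acid and N-hydroxypipecolic acid, had 4770.3, 4882 and 4832 and 47.6, 33.1 and 48.18, a difference of 6.80 ± 0.24. UGT74F2, which makes the SA glucose ester, had 2361, 2124 and 2241 and 213, 188 and 199. Its difference was 3.48 ± 0.25, and UGT75B1 rose by 4.07 ± 0.45. UGT71C3, which glucosylates methyl salicylate, fell by 1.56 ± 0.40.

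**Figure D2:**
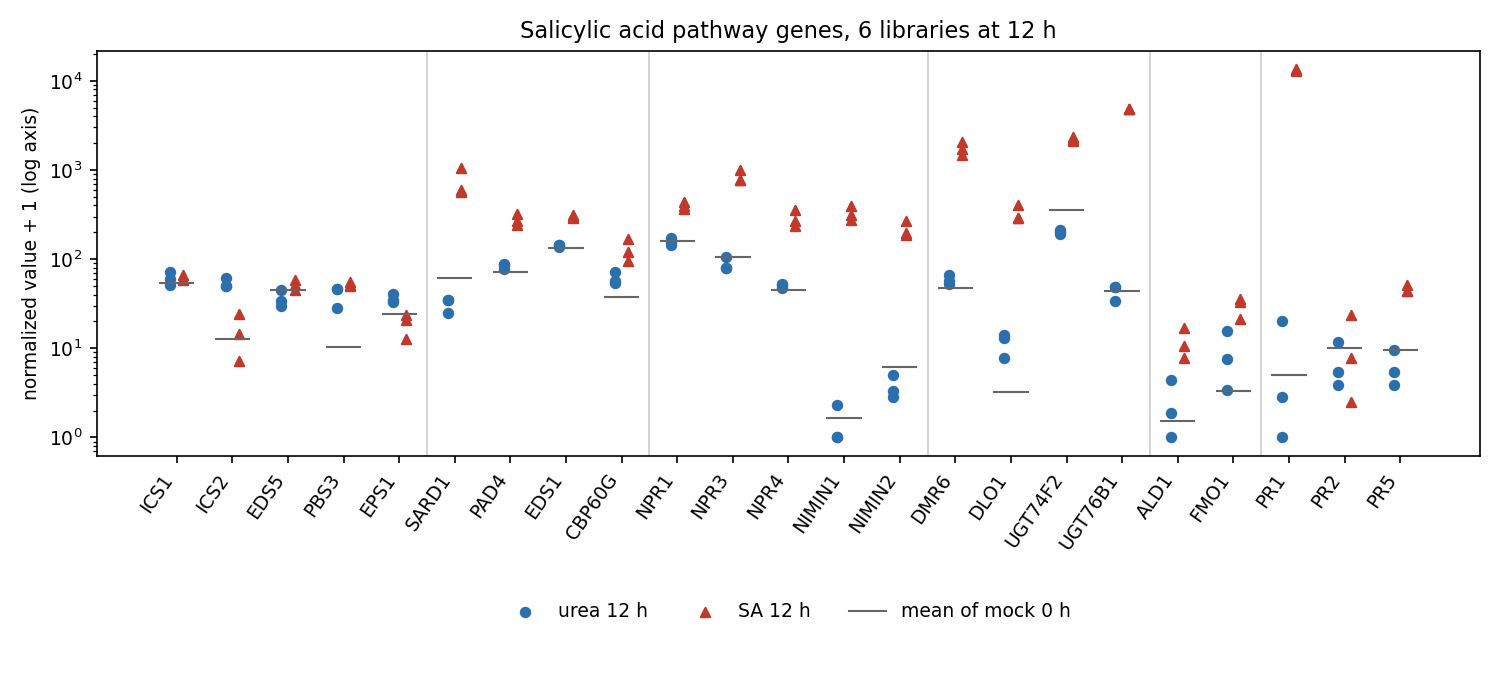
Normalized value plus 1 on a log axis for 23 SA pathway genes, in the 3 urea libraries (blue circles) and the 3 SA libraries (red triangles) at 12 h, with the mock mean at 0 h as a grey bar; vertical lines part synthesis, regulators, perception, breakdown and conjugation, the N-hydroxypipecolic acid pathway and PR genes. The ICS1 values of both groups overlap and lie between 49.8 and 70.1, whereas UGT76B1 has 4770.3, 4882 and 4832 in SA and 47.6, 33.1 and 48.18 in urea.

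N-hydroxypipecolic acid is the signal made alongside SA in systemic resistance, and the 2 of its 3 listed synthesis genes that were read were higher. The other, SARD4, was left out because symbol and identifier did not match. ALD1, the first enzyme, had 9.74, 6.81 and 16.05 in SA and 0, 3.41 and 0.888 in urea, a difference of 2.47 ± 0.67. FMO1, the last enzyme, had 31.6, 34.7 and 20.6 and 6.68, 2.39 and 14.6. Its difference of 1.98 ± 0.52 was called (adjusted p = 0.00339, limma), but not without urea replicate 2. Both stayed at low values, and their groups did not overlap.

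Among 15 genes listed as SA markers, PR3 and EDR2 included, 12 were called higher and 1 lower, with a median of 3.91. The members did not move as a block. PR5 (AT1G75040), a thaumatin-like protein, had 50.5, 42.9 and 42.6 in SA and 2.83, 4.41 and 8.46 in urea, a difference of 2.99 ± 0.52. PR2 (AT3G57260), a glucanase often read together with PR1 and PR5, had 1.52, 22.7 and 6.72 and 2.85, 10.7 and 4.40. The PR2 groups overlapped, and the difference of 0.31 ± 0.64 was not called (adjusted p = 0.752, limma). BG3, the glucanase gene next to PR2, had 65.9, 96.8 and 67.1 in SA and 4.78, 1.24 and 0 in urea and differed by 5.02 ± 0.52, with the same limit on reads shared between related neighbours. WAK1, a wall-associated kinase, rose by 4.90 ± 0.34, and ACD6, an ankyrin membrane protein that promotes SA-dependent defence, by 4.88 ± 0.45.

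Other defence families followed, and their counts stand beside 16.2% higher and 15.6% lower over all genes. Of 60 WRKY transcription factors 24 were called higher and 4 lower, with a median of 0.54. WRKY62 had 424, 288 and 259.9 in SA and 0, 0.233 and 0 in urea, a difference of 8.21 ± 0.48. WRKY38, its close relative, differed by 6.76 ± 0.49, WRKY59 by 6.53 ± 0.52 and WRKY51 by 4.52 ± 0.51. WRKY70, which favours SA over jasmonate responses, had 3585, 3183 and 3685 and 132, 110.2 and 76.1. It rose by 5.06 ± 0.36, and its relative WRKY54 by 6.68 ± 0.67. Of 36 cysteine-rich receptor-like kinases 17 were called higher and 5 lower, the latter near the share over all genes. CRK14 differed by 3.55 ± 0.42 and CRK4 by 3.37 ± 0.34. Members of this family lie in tandem, so part of their values may be shared.

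Of 7 glutaredoxins of several classes, 4 were called higher and none lower (1 lower without SA replicate 1). GRX480 (AT1G28480), which binds TGA factors, rose by 4.28 ± 0.60, and GRXS13 by 4.38 ± 0.33. Of 17 immune receptors and associated proteins 12 were called higher and none lower, with a median of 1.18. The associated proteins included RIN4, RAR1, SGT1B and HSP90.1, and HSP90.1 was also counted with the heat shock genes. HR3 and HR4, homologs of the mildew resistance protein RPW8, rose by 4.12 ± 0.33 and 2.32 ± 0.26, and ZAR1, which assembles into a membrane channel, by 1.74 ± 0.19. Pattern-triggered immunity genes were higher in 14 of 28 and lower in 1, a call lost without SA replicate 2, SA replicate 3 or urea replicate 1. FRK1, a kinase induced by flagellin, rose by 2.43 ± 0.43, the mitogen-activated kinase MPK11 by 3.28 ± 0.33, the receptor adaptor SOBIR1 by 2.38 ± 0.27 and MLO2, a powdery mildew susceptibility protein, by 2.09 ± 0.16.

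**Figure D3:**
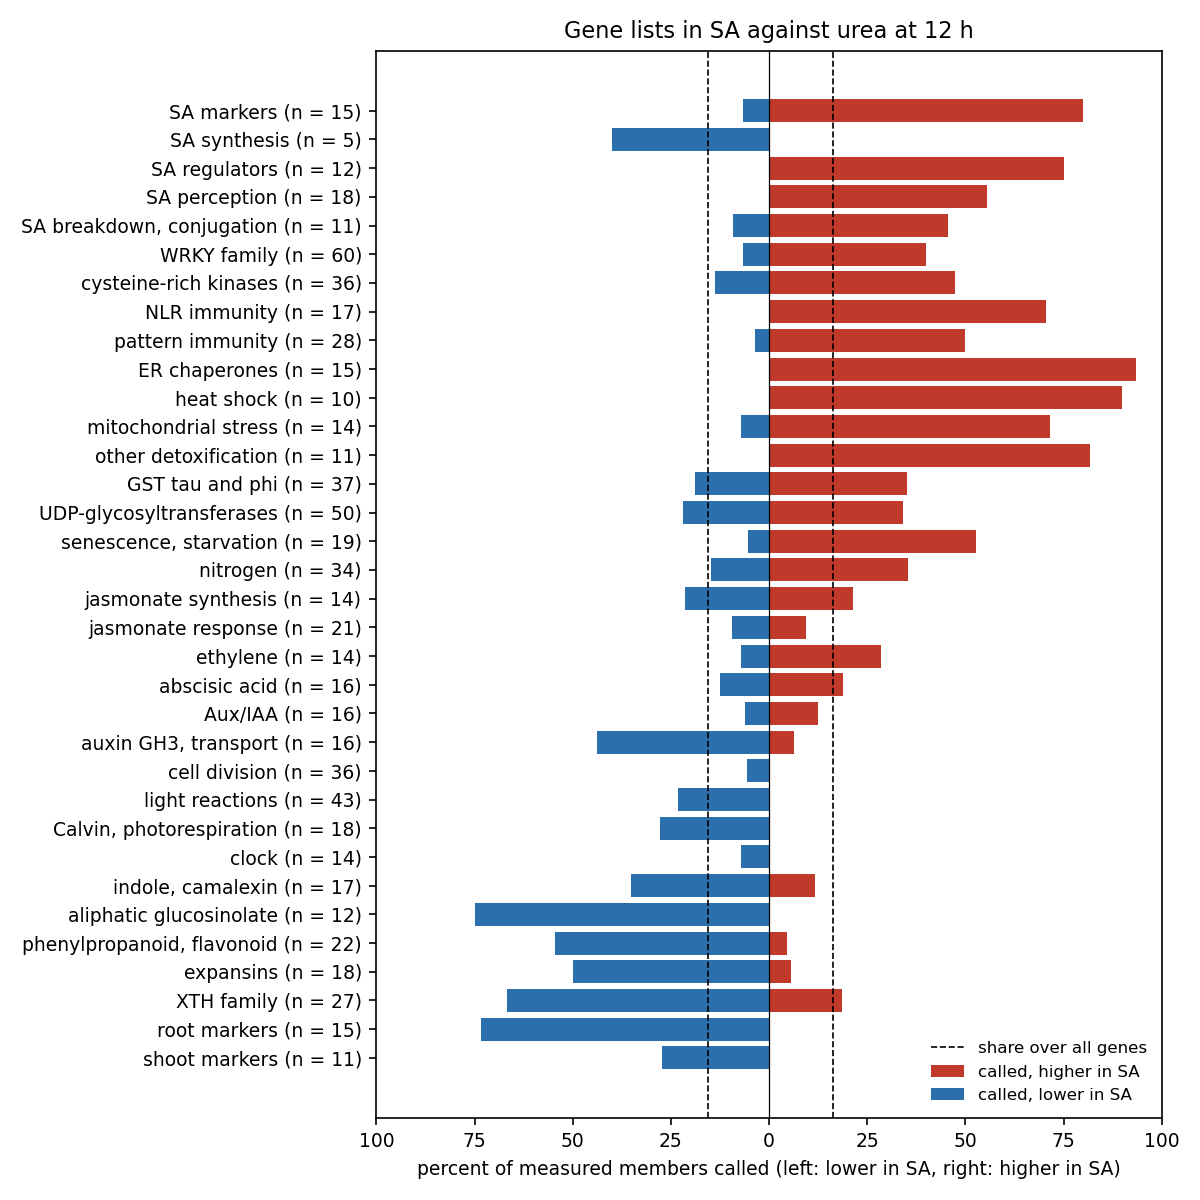
Percent of the measured members of 34 gene lists called higher (red, to the right) or lower (blue, to the left) in SA than in urea at 12 h, with dashed lines at the 16.2% called higher and 15.6% called lower over all genes. Chaperones of the endoplasmic reticulum reach furthest to the right, with 14 of 15 members higher, and the aliphatic glucosinolate and root marker lists furthest to the left, with 9 of 12 and 11 of 15 members lower.

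Protein folding genes were higher. In the endoplasmic reticulum, 14 of 15 members were called higher and none lower, with a median of 1.21. BIP3, an HSP70 chaperone induced by unfolded proteins, had 120.5, 92.3 and 103 in SA and 0.892, 4.41 and 0.246 in urea, a difference of 5.50 ± 0.56. BIP1, a constitutive form with a close copy in BIP2, had 1225, 1052 and 1099 and 391, 425 and 396 and rose by 1.47 ± 0.17. The calreticulin CRT3 rose by 1.89 ± 0.16, the disulfide isomerase PDIL1-2 by 1.73 ± 0.14 and bZIP60, a transcription factor of the folding stress response, by 1.40 ± 0.36. Summed over the list, SA libraries lay between 10429.8 and 11198 and urea libraries between 5033 and 5418. Of 10 heat shock genes 9 were called higher and none lower, with a median of 2.11. The small chaperone HSP17.6II had 44.1, 40.2 and 81.1 in SA and 0, 1.32 and 0.777 in urea, a difference of 5.06 ± 0.75, and HSP90.1 rose by 2.05 ± 0.47.

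Mitochondrial stress genes were higher in 10 of 14 and lower in 1 (0 without SA replicate 2, urea replicate 1 or urea replicate 3), with a median of 1.59. UGT74E2 (AT1G05680), which glucosylates the auxin indole-3-butyric acid and responds to mitochondrial and oxidative stress, had 726, 395 and 571 in SA and 1.82, 3.45 and 4.01 in urea. Its difference was 7.11 ± 0.80. The alternative oxidase AOX1D had 22.5, 19.4 and 41.4 and 0.846, 3.45 and 0, and rose by 3.76 ± 0.66. The alternative NADH dehydrogenases NDB4 and NDA2 rose by 3.74 ± 0.64 and 2.78 ± 0.19, and NAC13, a transcription factor that signals from mitochondria, by 1.69 ± 0.40.

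Counts for detoxification genes stand against 16.2% higher and 15.6% lower over all genes. Of 37 tau and phi glutathione transferases 13 were called higher and 7 lower, the latter near the share over all genes. GSTU25 had 1225, 733 and 1333 in SA and 26.1, 21.4 and 33.4 in urea and differed by 5.27 ± 0.42, and its tandem neighbour GSTU24 by 3.90 ± 0.42. GSTU19 had 5774, 4735 and 6032 against 692, 758 and 813, a difference of 2.86 ± 0.27. GSTF11, which is placed in aliphatic glucosinolate synthesis, had 0.149, 0 and 0.497 in SA and 14.7, 10.5 and 5.72 in urea, and GSTU14 0.164, 0 and 0.469 and 19.6, 12.5 and 13.6. These fell by 3.15 ± 0.47 and 3.74 ± 0.49. Of 50 UDP-glycosyltransferases with a UGT symbol 17 were higher and 11 lower, with UGT73B4 at 3.41 ± 0.47. The balance was the other way in the 74 genes annotated as UDP-glycosyltransferase superfamily proteins. Of these, 15 were higher and 24 lower, with a median of -0.22. Of 11 other detoxification genes 9 were higher and none lower, among them the cytochrome P450 CYP81D8 at 4.81 ± 0.62, the transporter ABCG40 at 3.20 ± 0.52 and the zinc finger factor ZAT12 (AT5G59820) at 2.38 ± 0.53.

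Counts for the other hormone pathways stand against 16.2% higher and 15.6% lower over all genes, and shares near these are no result about the members. Among 14 jasmonate synthesis genes 3 were called higher and 3 lower (1 lower without urea replicate 3). The β-oxidation enzyme ACX1 rose by 1.27 ± 0.15, and AOS, which commits lipid hydroperoxides to jasmonate, fell by 0.97 ± 0.30 and was not called without urea replicate 3. Of 21 jasmonate response genes 2 were higher and 2 lower. Without SA replicate 1, 4 were lower, without SA replicate 3, urea replicate 1 or urea replicate 2, 1 was higher, and under scaling to the same total 1 was higher and 5 lower. TAT3, a tyrosine aminotransferase, had 56.2, 78.7 and 92.7 in SA and 4.74, 5.55 and 0 in urea and differed by 4.49 ± 0.64. ORA59, the factor that joins ethylene and jasmonate in defence, had 3.76, 0.659 and 0 and 8.72, 11.7 and 14.8 and differed by -2.65 ± 0.66. VSP2, a storage protein marker of jasmonate, had 0.337, 0 and 0.974 and 1.87, 15.9 and 0.272; its difference of -1.52 ± 0.73 was not called.

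Of 14 ethylene genes 4 were higher and 1 lower, with the synthesis gene ACS2 at 3.01 ± 0.61 and the signalling factor EIN3 at 0.68 ± 0.12. Of 16 abscisic acid genes 3 were higher (1 without urea replicate 1) and 2 lower (1 without SA replicate 2, and 0 without SA replicate 3 or urea replicate 3). DREB2A, a drought and heat factor, rose by 1.55 ± 0.40. Among 16 auxin conjugation, transport and root-branching genes 1 was higher and 7 lower. GH3.3, which joins auxin to amino acids, had 213, 206 and 259.8 in SA and 15.4, 18.3 and 94.05 in urea and rose by 2.86 ± 0.70. The auxin carriers AUX1, LAX3 and PIN2 (AT5G57090) fell, with differences of -1.56 ± 0.16, -1.91 ± 0.37 and -1.91 ± 0.29. Of 16 Aux/IAA repressors 2 were higher and 1 lower, a balance that turned under quantile normalization, under scaling to the same total and without SA replicate 1. Without SA replicate 3 or any 1 urea replicate, 1 was higher. None of 5 genes with a SAUR symbol was called (1 lower without SA replicate 1). Of 29 genes annotated as the SAUR-like auxin-responsive family 4 were higher and 5 lower, near the shares over all genes.

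The 15 lowest genes included wall proteins, lectins and transporters. sks15 (AT4G37160), a multicopper oxidase-like wall protein, had 0.407, 0 and 0 in SA and 59.6, 83.8 and 78.3 in urea, a difference of -6.05 ± 0.73 (adjusted p = 6.00e-08, limma). Its relative sks16 had 0.396, 0 and 0 and 47.8, 62.9 and 82.8. AGP30, an arabinogalactan protein of roots, had 0.323, 0 and 0 and 51.9, 41.9 and 66.7, and GH9C1, a root hair endoglucanase, 0.426, 2.34 and 0.0849 and 49.7, 45.3 and 64.3. In all 4 the SA libraries were at or close to 0 and the urea libraries far above them. The jacalin lectin genes AT1G52050, AT1G52060 and AT1G52070 lie side by side, so their values may share reads. They differed by -4.89 ± 0.59, -5.32 ± 0.60 and -5.04 ± 0.86. BGLU21 (AT1G66270), a β-glucosidase of roots, had 33.9, 32 and 17.4 in SA and 683, 685 and 587 in urea, a difference of -4.56 ± 0.24.

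HAK5 and OCT1, among the 15 lowest, were also higher in urea than in mock. HAK5 (AT4G13420), a high-affinity potassium transporter of roots, had 3.99, 0 and 0.0394 in SA and 106, 37.02 and 87.6 in urea, a difference of -5.36 ± 0.63. Its mock mean was 3.82, and it differed from mock by 4.15 ± 0.63 in urea (adjusted p = 8.70e-05, limma) and by -1.21 ± 0.63 in SA (adjusted p = 0.129). OCT1 (AT1G73220), an organic cation and carnitine transporter, had 0.462, 5.02 and 0 in SA, 55.6, 54.8 and 105 in urea and a mock mean of 7.38. ICS2 was also higher in urea than in mock, by 2.12 ± 0.47, and its difference from mock in SA was 0.14 ± 0.47 (adjusted p = 0.842, limma). Over all genes, 919 were called between urea at 12 h and mock and 7769 between SA at 12 h and mock. These comparisons use the same mock libraries and the same libraries at 12 h as the main one.

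Root markers fell together, with 11 of 15 called lower and none higher and a median of -2.43. PRP3 (AT3G62680), a proline-rich root hair protein, had 1.71, 4.09 and 0 in SA and 105, 81.2 and 85.1 in urea. The root hair expansin EXPA7 had 0.296, 1.54 and 0 and 13.6, 18.97 and 25.1, and COBL9 (AT5G49270), which root hairs need to grow, 2.65, 3.36 and 0.263 and 31.3, 18.96 and 34.7. PLT2, a root stem cell factor, had 0.150, 0.762 and 0 and 7.81, 10.5 and 11.04. Their differences were -5.25 ± 0.45, -3.73 ± 0.41, -3.39 ± 0.43 and -3.08 ± 0.59, with no overlap between groups. PYK10 (AT3G09260), an abundant root β-glucosidase, had 532, 778 and 283 in SA and 3324, 3399.8 and 2721 in urea, a difference of -2.68 ± 0.24. In whole seedlings, fewer root cells and less of these RNAs per cell cannot be told apart.

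Summed over the 15 root markers, values were 476 to 994 in SA and 3261 to 3867 in urea. EXPA7, EXPA18, PLT2 and PRP3 were each listed at 0 in 1 SA library. Of 11 shoot markers 3 were called lower and none higher, with a median of -0.50, and their sums were 846 to 1262 in SA and 1331 to 1597 in urea. Only 1 shoot marker stayed called without SA replicate 2, urea replicate 1 or urea replicate 3. The epidermal factor ATML1, for example, had 168, 131 and 168 and 227, 199 and 231. The part of the root and shoot share of the RNA in the other results was not tested.

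Many genes for wall-loosening proteins were called lower, and some higher. Of 27 xyloglucan endotransglucosylases (XTH), which cut and rejoin wall xyloglucan, 18 were called lower and 5 higher, with a median of -2.17. XTH12 had 0.323, 0 and 0 in SA and 45.00, 38.8 and 44.9 in urea, XTH26 2.74, 1.48 and 0.151 and 35.1, 38.9 and 30.6, and XTH15 2.88, 5.88 and 5.49 and 88.7, 64.4 and 100.2. The differences were -5.32 ± 0.52, -4.02 ± 0.42 and -3.91 ± 0.31. XTH10 went the other way, with 157, 99.4 and 108 in SA and 11.6, 8.69 and 11.5 in urea, and rose by 3.38 ± 0.40. Of 18 expansins 9 were lower, 1 was higher and 8 were not called. Besides the root hair forms, EXPB1 fell by 1.73 ± 0.45 and EXPA3 (AT2G37640) by 1.55 ± 0.39.

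**Figure D4:**
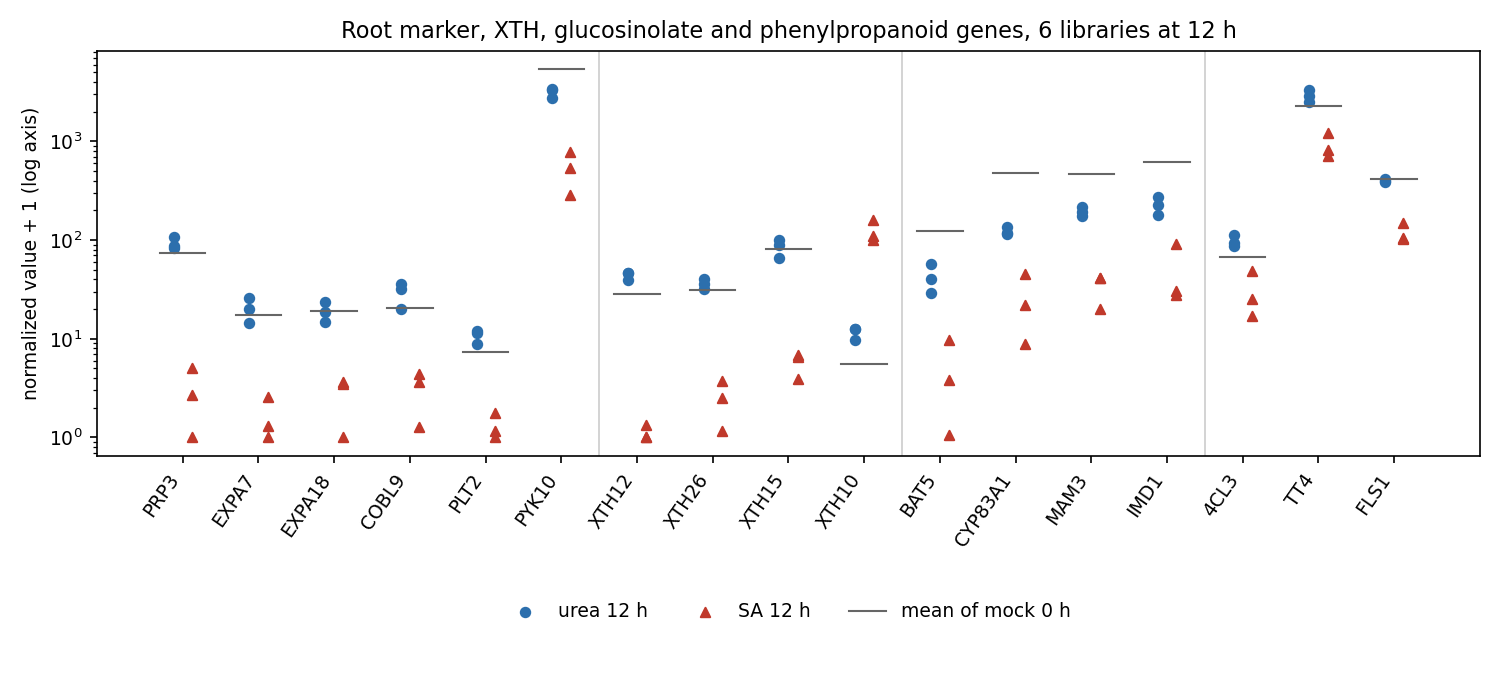
Normalized value plus 1 on a log axis for 17 genes in the 3 urea libraries (blue circles) and the 3 SA libraries (red triangles) at 12 h, with the mock mean at 0 h as a grey bar; vertical lines part root markers, XTH genes, aliphatic glucosinolate genes and phenylpropanoid genes. SA values lie below urea values in each gene apart from XTH10, which had 99.4 to 157 in SA and 8.69 to 11.6 in urea.

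Aliphatic glucosinolate synthesis, which makes methionine-derived defence compounds, was lower in 9 of 12 members and higher in none, with a median of -2.25. CYP83A1 had 44.1, 21.2 and 7.79 in SA and 118, 135 and 114 in urea, a difference of -2.57 ± 0.62. The chain elongation genes MAM3 (AT5G23020) and IMD1 had 40.7, 40.2 and 18.96 and 89.7, 29.3 and 26.97 in SA. In urea they had 189.9, 213 and 174 and 225, 269 and 177, giving differences of -2.57 ± 0.44 and -2.38 ± 0.44. BAT5, the plastid transporter of the keto acids, differed by -3.59 ± 0.61. CYP79F1 differed by -2.47 ± 0.71, a call lost without urea replicate 2, and it shares sequence with its neighbour CYP79F2. Mock means were higher than both groups, at 479.9 for CYP83A1 and 465 for MAM3.

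Of 17 indole glucosinolate and camalexin genes 2 were higher and 6 lower, beside 16.2% higher and 15.6% lower over all genes. With SA and urea libraries only, the groups compared alone or estimated library weights, 5 were higher and 6 lower. MYB34, a regulator of the indole branch, fell by 2.61 ± 0.45 and IGMT1, a methyltransferase of that branch, by 3.32 ± 0.49. The camalexin genes split. CYP71A13 had 45.7, 55.3 and 36.3 in SA and 0, 2.28 and 0 in urea and PAD3, the last enzyme, 282, 165 and 193 and 47.6, 33.03 and 55.04, whereas CYP71A12 had 12.17, 21.2 and 18.2 and 108, 41.5 and 119. Their differences were 4.96 ± 0.84, 2.21 ± 0.49 and -2.21 ± 0.63. CYP71A12 and CYP71A13 are close copies side by side, so reads may have been split between them. The mock means were 1.23 for CYP71A12 and 0.401 for CYP71A13.

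Phenylpropanoid and flavonoid genes were lower in 12 of 22 members and higher in 1, a call lost without any 1 of the 6 libraries, with a median of -0.82. Without SA replicate 3 or urea replicate 3, 7 were lower. Chalcone synthase (TT4) had 1218, 705 and 812 in SA and 2873, 2511 and 3327 in urea, a difference of -1.70 ± 0.37. Flavonol synthase FLS1 had 148, 102 and 103 and 394, 389.6 and 418, a difference of -1.78 ± 0.35. The ligase 4CL3 differed by -1.81 ± 0.36, and the groups of all 3 did not overlap.

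Photosynthesis genes of the nucleus gave less certain counts, to be read beside 16.2% higher and 15.6% lower over all genes. Of 43 light reaction genes 10 were called lower and none higher, with a median of -0.49. That count was 3 without SA replicate 2 or urea replicate 1, 4 without urea replicate 3, 6 without SA replicate 1, and 27 without SA replicate 3 or urea replicate 2. It also ranged from 6 to 20 under other scalings. LHCB2.3, a light-harvesting protein of photosystem II, had 71.6, 60.02 and 96.04 in SA and 898, 416 and 1168 in urea and was well apart from the rest at -3.33 ± 0.30. The photosystem II protein PSBQ-2 had 1712, 1383 and 2404 and 2983, 2475 and 4001, a difference of -0.79 ± 0.17. CAB2, with near-identical copies that can share its reads, had 1359, 957 and 2246 and 2524, 1349 and 4189.6 and was not called at -0.76 ± 0.34.

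The counts that follow stand beside 16.2% higher and 15.6% lower over all genes. Of 18 Calvin cycle and photorespiration genes 5 were lower and none higher, and 3 without SA replicate 2. RBCS2B, a Rubisco small subunit in a tandem group with close copies, had 2571, 3392 and 2383 in SA and 8452, 9111 and 6982 in urea, a difference of -1.56 ± 0.31. GLDP1, the glycine decarboxylase P protein, differed by -0.83 ± 0.22. Of 88 chloroplast-encoded genes 1 was called higher and none lower, and these counts depended on the setting. They were 5 and 3 under quantile normalization, 0 and 1 under scaling to the same total, and 9 and 5 with the groups compared alone. Leaving out 1 library gave 0 to 4 higher, with 3 higher and 1 lower without SA replicate 1 and 4 higher without urea replicate 3. Chloroplast genes held 0.320% to 0.395% of the values in SA and 0.387% to 0.518% in urea, and mitochondrial genes 0.0299% to 0.0381% and 0.0414% to 0.0535%. Of 36 cell division genes 2 were called lower and none higher, both under the shares over all genes. The number lower was 6 without SA replicate 1 and 1 without SA replicate 2 or urea replicate 1. CYCB1;3, a mitotic cyclin, had 17.3, 10.6 and 9.09 and 38.1, 36.8 and 36.8, a difference of -1.57 ± 0.38. Among 14 clock genes GI was called lower, at -0.83 ± 0.24, and not without SA replicate 2. Without urea replicate 2, 3 clock genes were lower.

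Because the reference was a nitrogen source, nitrogen genes were read on both sides. Of 34, 12 were higher and 5 lower, with a median of 0.39. Over all genes 16.2% were higher and 15.6% lower, so the number lower was near the general share. Under quantile normalization and under scaling to the same total, 10 were higher and 7 lower. The nitrate transporters that load and unload the xylem moved in opposite directions. NRT1.5, which loads nitrate into the xylem, had 52.2, 95.3 and 54.2 in SA and 536, 564 and 519 in urea and fell by 3.04 ± 0.28. NRT1.8, which takes nitrate back out, had 80.4, 46.5 and 42.4 and 0.853, 2.38 and 3.203 and rose by 4.21 ± 0.55. DUR3, the high-affinity urea transporter, had 335, 360.1 and 310.1 in SA, 55.4, 73.1 and 78.8 in urea and a mock mean of 19.7. It was higher in SA by 2.27 ± 0.25, and against mock it differed by 1.76 ± 0.25 in urea and 4.03 ± 0.25 in SA. The nitrate transporter NRT2.5 and the ammonium transporter AMT2 rose by 1.88 ± 0.35 and 2.00 ± 0.33, and the ammonium transporter AMT1;2 fell by 1.67 ± 0.31.

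Of 6 iron genes 2 were higher (1 without SA replicate 1 or urea replicate 2) and 2 lower (1 without SA replicate 3 or urea replicate 1), with the ferritin FER1 at 744, 961 and 826 in SA, 2869, 2999 and 2932 in urea and a mock mean of 1537. Its difference was -1.80 ± 0.27. Senescence and starvation genes were higher in 10 of 19 and lower in 1, with a median of 0.72. Over all genes 16.2% were higher and 15.6% lower. DIN2 (AT3G60140), a β-glucosidase induced in the dark, had 332, 344 and 710.4 in SA and 34.9, 48.9 and 39.1 in urea, against a mock mean of 0.993. It rose by 3.38 ± 0.58, SAG21, a mitochondrial protein of stress and senescence, by 3.06 ± 0.41 and SAG13, a short-chain dehydrogenase, by 2.58 ± 0.52. SAG29, a sugar transporter, was lower at -1.88 ± 0.61, a call lost without SA replicate 3 or urea replicate 1.

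Across time, most of the response at 12 h was also called at the other harvests. SA against urea called 5882 genes at 6 h (29.4%), 6113 at 24 h (30.6%) and 5683 at 48 h (28.4%). Of the genes higher at 12 h, 2422 were also higher at 6 h, 74.7% of the 12 h set and 76.2% of the 6 h set. Of the genes lower at 12 h, 1928 were lower at 6 h, 61.9% and 71.3% of the sets. At 48 h the shared genes were 1774 higher (54.7% of the 12 h set and 65.7% of the 48 h set) and 1845 lower (59.2% and 61.9%). Of the genes higher at 12 h, 2 were called lower at 6 h, 4 at 24 h and 22 at 48 h, and of the genes lower at 12 h, 24 were called higher at 48 h. The difference itself changed from 6 to 12 h in 9 genes (0.0450%), 3 upward and 6 downward, with 1017 genes at an unadjusted p under 0.05. From 12 to 24 h it changed in 30 genes (0.150%), 3 upward and 27 downward. From 12 to 48 h it changed in 496 (2.48%), 170 upward and 326 downward.

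Genes whose difference changed had different courses. FMO1 had a mean of 1.06 in SA and 5.41 in urea at 6 h, and 142 and 13.2 at 24 h. Its SA minus urea difference was -1.74 at 6 h, 1.98 at 12 h, 3.43 at 24 h and 4.81 at 48 h. AGP30 went from -0.66 at 6 h to -5.61 at 12 h, and BGLU21 from -1.81 to -4.56. Several stress genes had smaller differences after 12 h than at 12 h. UGT74E2 went from 7.11 at 12 h to 4.89 at 24 h and 0.20 at 48 h, GSTU25 from 5.27 to 1.15 and 1.74, and BIP3 from 5.50 to 2.72 and 0.52. PR1 kept a difference of 11.25 at 6 h, 9.86 at 24 h and 12.90 at 48 h, while its SA mean went from 4555 at 6 h through 13277 at 12 h to 25647 at 48 h. PR2 had differences of -1.14, 0.31, 1.00 and 3.13 at the 4 times, and at 48 h it was called (adjusted p = 2.86e-04, limma). ICS1 stayed between -0.12 and 0.02 at all 4 times.

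**Figure D5:**
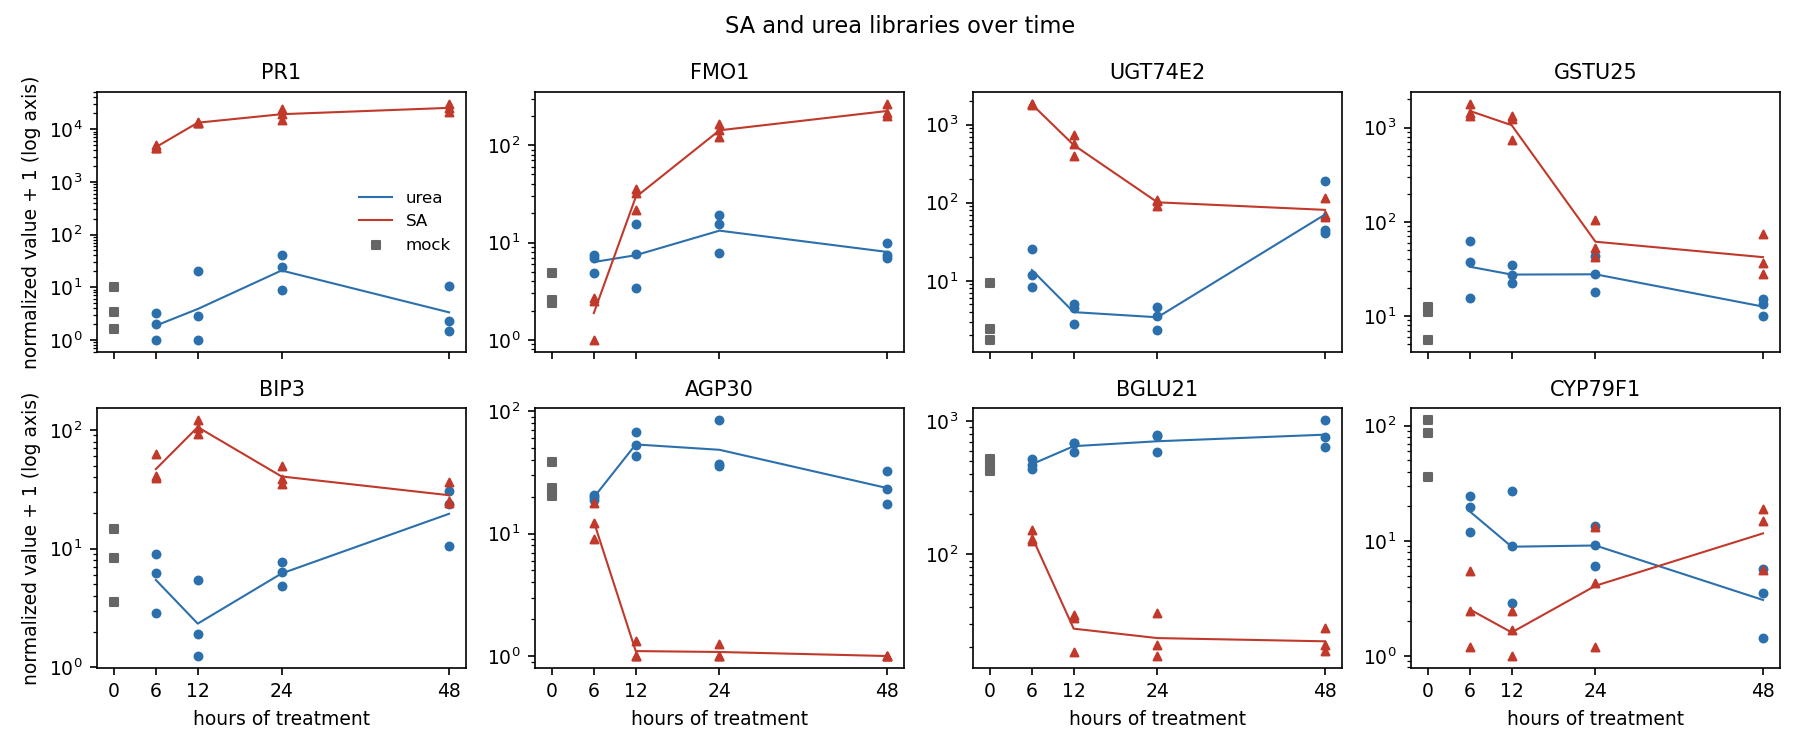
Normalized value plus 1 on a log axis against hours of treatment for 8 genes, in single libraries (points) of urea (blue), SA (red) and mock at 0 h (grey squares), with lines through the means of log2(value + 1). PR1 and FMO1 have their highest SA means at 48 h, UGT74E2 and GSTU25 at 6 h and BIP3 at 12 h, while AGP30 lies near 0 in SA from 12 h on.

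Counts of called members were also taken over whole lists at each time. Heat shock genes were higher in 9 of 10 at 6 h, 9 at 12 h, 2 at 24 h and 1 at 48 h. Chaperones of the endoplasmic reticulum were higher in 14 of 15 at 6 h, 14 at 12 h, 10 at 24 h and 8 at 48 h. SA markers were higher in 12 of 15 at each of the 4 times. Root markers were lower in 9 of 15 at 6 h, 11 at 12 h, 12 at 24 h and 13 at 48 h. Over all 20001 genes, 3179, 3244, 3015 and 2701 were called higher at the 4 times, and 2703, 3116, 3098 and 2982 lower. The heat shock counts at 24 and 48 h were near these shares. Differences between the list counts were not tested.

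Against L-Glu at 12 h, which shares the SA libraries of this comparison, 10491 genes were called (52.5%). PR1 was lower in L-Glu than in SA by a difference of -10.21 ± 0.86, and FMO1 was higher in L-Glu by 4.57 ± 0.52.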

How the data were processed

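RNA was sequenced from whole seedlings, and sample titles gave each library its group and replicate number. The authors deposited 1 table with normalized signal for 20001 genes in 39 libraries. Per the submitters' processing notes, the build was TAIR10, and the tools named are edgeR 3.22.3, HTSeq 0.6.0 and TopHat2 2.1.0. The scaling of the deposited values and the use of strand are not given in the sources used here. Without strand, reads of overlapping or antisense genes cannot be told apart. Library medians were 47.6 to 48.1 in the 6 libraries compared, although library sums differed.

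Values were compared as log2(value + 1) in 1 limma 3.58.1 fit (R 4.3.3) of 39 libraries in 13 groups, with an intensity trend and 26 residual degrees of freedom. A minimum value of 1 in at least 3 libraries removed no gene. Adjusted p-values are two-sided Benjamini-Hochberg values over all genes. Each gene has 1 spread over the 13 groups, so an SE also reflects libraries outside its comparison. The fit was tested on simulated data with known changes.

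Names came from the RefSeq table of TAIR10.1, which matched 19887 identifiers. The 40 gene lists held 829 distinct measured genes, 28 members had no value, and 11 were left out because symbol and identifier did not match. The members and lists were chosen with earlier results of these data known. Named genes were the 15 highest and 15 lowest called genes whose groups did not overlap and whose higher group averaged 10 or more, the 6 largest changes in each list, the 4 highest and 4 lowest called genes for each change with time and for L-Glu against SA, and PR1, PR2, PR5, ICS1, NPR1, NIMIN1, WRKY70, ALD1 and FMO1. Promoters were read from the RefSeq TAIR10.1 genome and annotation alone, since the table holds identifiers and no coordinates. Some promoters are not reported here. Alternatives were other pseudocounts, filters, scalings, fits, library weights, a replicate block and leaving out each of the 6 libraries. For the changes with time and for L-Glu against SA, each other library of the groups compared was also left out in turn.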

Additional observations from a re-analysis of the deposited data

Results flagged for a closer look

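The SA minus urea difference of these genes changed between 2 harvests by limma's test of the change itself, and for each interval the 4 highest and 4 lowest called changes are given, or as many as were called. Between 6 and 12 h the difference moved up by 3.72 ± 0.74 (SE, log2) in FMO1, by 1.85 ± 0.33 in AT5G10580, a protein of unknown function, and by 1.47 ± 0.29 in PRA1.E, a prenylated Rab acceptor. It changed by -4.95 ± 0.66 in AGP30, -3.12 ± 0.51 in the calcium-binding protein gene AT1G29025, -2.75 ± 0.34 in BGLU21 and -2.59 ± 0.49 in GH9C1. AT5G10580 went from a difference of -2.59 at 6 h to -0.75 at 12 h, and PRA1.E from -0.85 to 0.63. No upward change was called with a pseudocount of 4, without SA replicate 2 at 12 h or without urea replicate 2 at 12 h.

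Between 12 and 24 h the changes were 3.19 ± 0.68 in UMAMIT8, an amino acid transporter family member, 2.90 ± 0.62 in FTM1, an acyl carrier protein desaturase, and 0.94 ± 0.21 in the peroxidase AT3G32980. They were -4.35 ± 0.75 in AT2G31860, -4.12 ± 0.59 in GSTU25, -3.75 ± 0.81 in the factor MYB39 and -3.51 ± 0.62 in AT4G00910, a malate transporter family member. UMAMIT8 had 0.190, 2.55 and 0 in SA and 5.82, 14.7 and 6.44 in urea at 12 h. AT2G31860 had 23.64, 27.5 and 30.97 and 0.847, 0.264 and 0.754 at 12 h and a difference of -0.21 at 24 h. Upward changes were lost without urea replicate 2 at 12 h, and also without SA replicate 1, urea replicate 1 or urea replicate 3 at 24 h.

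Between 12 and 48 h the changes were 4.65 ± 0.84 in the aspartate kinase AK3, 4.39 ± 1.01 in CYP79F1, 4.34 ± 1.1 in the cytochrome P450 CYP82C2 and 4.05 ± 0.52 in the peroxidase AT2G38390. They were -6.91 ± 1.13 in UGT74E2, -5.53 ± 0.77 in ABR1, -5.36 ± 1.11 in the F-box gene AT5G55150 and -4.98 ± 0.79 in BIP3. AK3 had 6.32, 2.30 and 1.56 in SA, 48.7, 55.95 and 44.1 in urea and a mock mean of 221, and its difference went from -3.67 at 12 h to 0.98 at 48 h.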

How the results depend on the processing

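At 12 h the 6360 calls ranged from 5196 to 7779 over 18 alternatives, and the 3413 calls of at least 2-fold stayed within 1.5 times of that count. Higher genes were 51.0% of the calls, against 47.6% under quantile normalization and 42.7% under scaling to the same total. Of 268 named genes, 208 kept their side of the threshold in all alternatives and none reversed. The changes with time depended on the fit. Those from 6 to 12 h numbered 9, and 46 with SA and urea libraries alone, 51 with the groups compared alone, 72 with estimated library weights and 3 to 15 without 1 library. Those from 12 to 24 h numbered 30, and 89, 111, 153 and 12 to 51 in the same order. Those from 12 to 48 h numbered 496, and 1188, 769, 1093 and 255 to 507. L-Glu against SA could not be fitted on SA and urea libraries alone.

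The replicate numbers were not taken as pairs, since same-numbered SA and urea libraries deviated together with r of 0.0858, 0.128 and 0.0889, although every library correlated best with its own number. With a replicate block 6732 genes were called at 12 h, 10, 29 and 579 for the 3 changes with time, and 10727 for L-Glu against SA. Depth is unknown, and 3 libraries a group limit what could be called among genes with low values.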

Other observations

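Gene families by annotated product, with at least 20 measured members, were ranked after their values were seen and carry no test. Of 21 mannose-binding lectins 13 were called lower in SA and 3 higher, with a median log2 difference of -1.90. Of 52 peroxidases 31 were lower and 5 higher, with a median of -1.39. Of 28 NPH3 proteins, the family of the phototropism adaptor NPH3, 12 were lower and none higher, and of 47 pectin lyase-like proteins 16 were lower and none higher. On the other side, 9 of 22 immune receptors annotated as the CC-NBS-LRR class were higher and none lower, and 17 of 54 of the TIR-NBS-LRR class were higher and 5 lower. Over all genes 16.2% were higher and 15.6% lower.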
